A study of Homo sapiens with 40 samples.

Results

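The 39 glycolysis and hypoxia genes described here were taken as the rows of 39 listed symbols, each of which was found once in every one of the 3 count tables, among 62754 genes per table. They cover glucose uptake, the enzymes of glycolysis, the kinases and bifunctional enzymes that set its rate, lactate formation and export, the hypoxia factor HIF1A with its oxygen-sensing hydroxylases, and further genes known to respond to low oxygen. They were measured by RNA sequencing in 40 libraries of 10 groups with 4 libraries each, labelled as human T-cell acute lymphoblastic leukaemia (T-ALL) lines. In the knockdown libraries labelled HPB-ALL the T-cell markers went against the label, as given below. Jurkat cells were electroporated with an siRNA against QKI (Jurkat QKI siRNA) or with a non-targeting siRNA (Jurkat control siRNA) and kept in medium with 10% foetal calf serum. Cells labelled HPB-ALL were transduced with virus coding for a short hairpin RNA against QKI (QKI shRNA) or a non-targeting one (control shRNA) and kept in 20% serum. Untreated LOUCY, TALL-1, DND-41 and ALL-SIL were kept in 10% serum, and untreated HPB-ALL and KARPAS-45 in 20%. QKI (quaking) is an RNA-binding protein known to steer splicing and the lifetime of messenger RNAs. The knockdowns ask what its depletion does to expression and splicing, and the 6 untreated lines how splicing varies with the QKI level; only levels per gene were read here. By its label every group is a single established line, and the shRNA, its promoter and the clonality of the transduced cells were not known here.

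Glycolysis turns glucose into pyruvate. Its committed step is run by phosphofructokinase, which is activated by a bisphosphate that the PFKFB enzymes make and break. Pyruvate then either enters mitochondria through pyruvate dehydrogenase, which the PDK kinases switch off, or is reduced to lactate by lactate dehydrogenase and leaves the cell through the monocarboxylate transporters SLC16A1 and SLC16A3. The factor HIF1A is destroyed in the presence of oxygen after hydroxylation by EGLN enzymes, and when stable it binds the short core of the hypoxia response element and raises many of these genes. Leukaemic T cells are known for a high glycolytic rate even with oxygen present.

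QKI binds RNA through a response element whose core reads ACTAAC or ACTAAT in DNA letters, and this core was searched on the sense strand of the longest protein-coding GENCODE 29 transcript of each gene. It was found in 20 of the 39 genes (51.3%), against 43.9% of 19666 genes with such a transcript, and at 0.29 against 0.24 sites per kb. Among the genes whose level was called different with the QKI shRNA it was found in 2 of 6 that were higher and in 3 of 5 that were lower, and in 13 of 25 that were not called. The windows around the matches of these 5 called genes are shown because they place the core that QKI is known to bind, in capitals, within the transcripts whose levels differed. They run 5′ to 3′ along the transcript.
PDK3 match 1: ttcattagcACTAACatccaatat
PDK3 match 2: gggggtgacACTAATcctgttcat
PDK3 match 3: aagatcaagACTAATagaactttc
LDHA match: atattattgACTAATagcagagga
SLC16A1 match: aaaataacaACTAACttgtttgag
HK2 match 1: gatggggacACTAATgaagatacg
HK2 match 2: cccatctgcACTAATtgacccaaa
KDM3A match: gcctcaaggACTAACcatcaagcc

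On GRCh38 the capitals stand at chrX:24503439-24503444, chrX:24505229-24505234 and chrX:24539147-24539152 on the + strand for PDK3, all in coding sequence, and at chr11:18407974-18407979 on the + strand, in the 3′ UTR, for LDHA. For SLC16A1 they stand at chr1:112913504-112913509 on the - strand, in the 3′ UTR. For HK2 they stand at chr2:74891267-74891272 and chr2:74892881-74892886 on the + strand, both in the 3′ UTR, and for KDM3A at chr2:86482559-86482564 on the + strand, in coding sequence. These are matches of letters, not sites shown to be bound, and introns, where many splicing sites of QKI lie, were not searched.

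The core of the hypoxia response element, ACGTG or GCGTG, was searched on both strands of RefSeq promoters of GRCh38.p14, each 300 bases long around a start site. Of the 39 genes 34 had an entry, with 64 promoters among them, and 43 of these (67.2%) held the core, against 48.4% of 35116 promoters. Matches that overlap, such as both strands of CACGTG, count separately. By gene, 6 of 6 called higher, 3 of 3 called lower with an entry, and 21 of 22 not called had at least 1 match, against 52.4% of all 27305 genes with an entry, which have fewer promoters per gene (35116 in all). The window around the first match is shown for 2 genes that were higher and 2 that were lower with the QKI shRNA, with the match in capitals, 5′ to 3′ in the direction of the gene.
ENO2 promoter: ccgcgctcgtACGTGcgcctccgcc
PFKFB4 promoter: agttgggcatGCGTGgtcggaggcc
ALDOC promoter: aagtgcccggCACGTGgtaaagggat
LDHA promoter: actcccagcgCACGTGgagcagtctg

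The windows stand at chr12:6914452-6914476 (+ strand) for ENO2, chr3:48556955-48556979 (- strand) for PFKFB4, chr17:28577120-28577145 (- strand) for ALDOC and chr11:18394368-18394393 (+ strand) for LDHA. The whole promoters held 1 match for ENO2, 1 for PFKFB4, 5 for ALDOC and 6 for LDHA.

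The libraries held 44.1 to 134.9 M counts (M stands for 1e6), with the untreated lines at the low end (44.1 to 84.0 M). QKI fell from 148 ± 19.5 to 21.5 ± 4.22 CPM in Jurkat (CPM: counts per 1e6 with TMM scaling; mean ± SD, n = 4) and from 104 ± 2.58 to 55.8 ± 1.42 CPM in those labelled HPB-ALL, with edgeR adjusted p-values of 0.000129 and 1.1e-07. The T-cell markers went against the second label: 0 of 11 had a mean over 1 CPM in either of its groups, with a summed level of 0.883 to 1.16 CPM in the controls, where CD5 and LCK had no count, against 10 of 11 and 5809 to 8497 CPM in untreated HPB-ALL. Of the myeloid markers 8 of 12 were over 1 CPM in the controls and 7 of 12 with the QKI shRNA, against 1 of 12 in untreated HPB-ALL. These libraries are therefore called the libraries labelled HPB-ALL. In bulk samples, fewer cells of a type and less RNA per cell cannot be told apart. The knockdown replicates are described as biological; the labels do not say whether those of the untreated lines were grown separately, so p-values there cover only the spread among the 4 libraries, and that may be technical.

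Per kb of exon, GAPDH, the enzyme that oxidises the triose phosphate, had the highest level of the 39 genes in 10 of 10 groups, from 699.9 CPM per kb in ALL-SIL to 2063 in KARPAS-45. ENO1, the main enolase, or TPI1, the triose isomerase, came next in every group, with ENO1 at 490.0 CPM per kb and TPI1 at 133 in the control libraries labelled HPB-ALL. The 39 genes together took 1.53% to 1.65% of counts in the libraries labelled HPB-ALL, 1.14% to 1.27% in KARPAS-45 and 0.612% to 1.06% in every other group. At the other end, the carbonic anhydrase CA9 had a mean of at most 0.266 CPM in any group, and the collagen prolyl hydroxylase P4HA2 passed 1 CPM only in LOUCY (1.24 CPM). The map of levels shows the whole set. Some rows are not plain levels: ALDOA, the main aldolase of most cells, was counted at only 0.264 to 1.29 CPM and shares 42.3% of its exon bases with another gene on the same strand, and LDHB, with 0.578 to 7.58 CPM, shares 33.4%. The libraries labelled HPB-ALL carry a separate count of ambiguous reads, 5.13% to 5.32% of reads, and a multimapping count of 0. What made a read ambiguous, and how the other libraries were counted, is not known here. Both rows, and any ratio with them, are therefore uncertain. Genes on the opposite strand cover 38.5% of the exon bases of CA9 (ARHGEF39), 35.2% of ANKRD37 (UFSP2), 8.58% of PFKM (SENP1) and 7.66% of BNIP3L (PNMA2). Since the strand setting is not known, the low rows of CA9 and ANKRD37 are uncertain too. Smaller overlaps touch SLC16A3 (5.36% of exon bases, opposite strand), PFKFB4 (4.73%, same strand) and SLC16A1 (3.29%, opposite strand). GAPDH and other enzymes have processed pseudogenes with which reads can be shared.

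**Figure D1:**
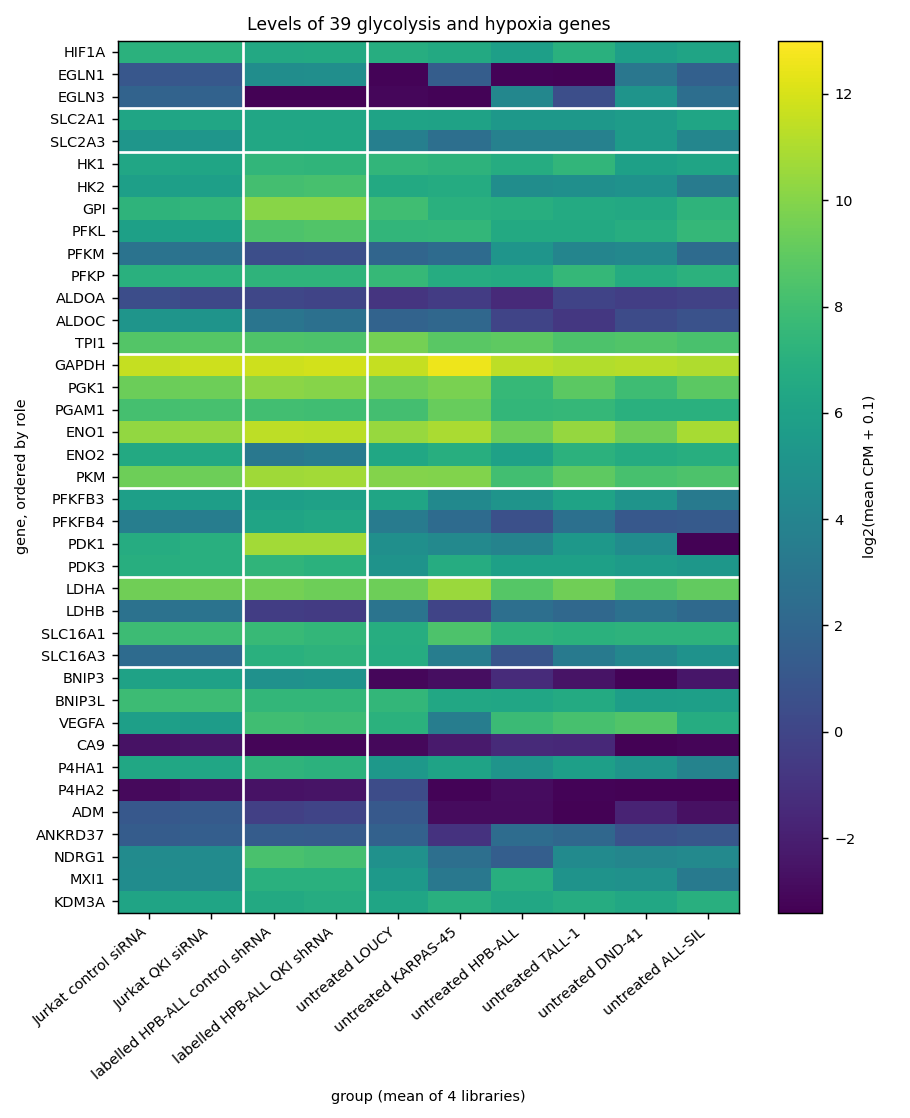
Each cell shows log2(mean CPM + 0.1) of 1 gene (rows, ordered by role, with white lines between roles) in 1 group (columns, mean of 4 libraries). The bright rows are GAPDH, ENO1 and other enzymes of the trunk pathway in all 10 groups, CA9 and P4HA2 are dark in nearly all, and PDK1 is dark in ALL-SIL (0 counts) but bright in the libraries labelled HPB-ALL (1723 CPM in the controls); levels were scaled within each of the 3 tables.

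In Jurkat, no glycolysis or hypoxia gene passed the test when QKI was depleted. Of the 39 genes 37 had enough counts to be tested, CA9 and P4HA2 being too low, and 0 were called by edgeR's quasi-likelihood test (adjusted p under 0.05 over 21296 genes), where the share called among all genes was 0.0047%, QKI itself being the 1 gene called. At an unadjusted p under 0.05 there were also 0 of 37, and DESeq2 and limma-voom called 0. The log2 fold changes ran from -0.37 to 0.22, 20 above 0 and 17 below, with a median of 0.005 against 0.001 over all genes tested. The 4 control and 4 QKI siRNA libraries overlapped for every one of the 39 genes, against 1.07% of all genes whose groups did not overlap.

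PDK1, a kinase that shuts pyruvate out of the mitochondrial cycle, had the smallest p. It was measured at 112, 92.9, 107 and 117 CPM in control libraries 1 to 4 and at 125, 128, 114 and 133 CPM with the QKI siRNA. The level was higher in 4 of 4 same-numbered pairs, although the groups overlapped. On the log2 scale the difference was 0.22 (SE 0.11, edgeR adjusted p = 1.0). With the replicate number as a block, which pairs the Jurkat libraries, the change was 0.23 (SE 0.07, adjusted p = 0.741). GAPDH went from 2821, 2692, 3152 and 3554 CPM to 2836, 3689.8, 3410.2 and 3727 CPM, also higher in 4 of 4 pairs, a log2 difference of 0.16 (SE 0.14, adjusted p = 1.0). The low ALDOA row went from 1.25, 1.14, 1.09 and 1.68 CPM to 0.814, 1.24, 0.989 and 0.954 CPM, with overlapping groups (-0.37, SE 0.26, adjusted p = 1.0). The block left 0 of 37 genes called, and 2 of 37 at an unadjusted p under 0.05, PDK1 and the angiogenic factor VEGFA, with 0.0423% of all genes called. VEGFA was lower in 4 of 4 pairs, at 77.2, 57.2, 43.1 and 49.5 CPM against 65.5, 49.4, 41.7 and 42.5 CPM, where the first control library stood above the rest (with the block -0.18, SE 0.06, adjusted p = 0.741).

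Some of these genes rose in the libraries labelled HPB-ALL and others fell, each by a small amount. With the QKI shRNA, 6 were higher and 5 lower among the 36 tested (EGLN3, CA9 and P4HA2 being too low), where 23.2% of all 17974 genes tested were called, 12.8% higher and 10.4% lower. The 11 of 36 are to be read against that background. The changes ran from -22.0% to 25.1%, and none was called in a test against a fold of 1.2 (glmTreat of edgeR: 0 called, 1 at an unadjusted p under 0.05). The median log2 fold change of the 36 was -0.001 against -0.006 over all genes tested, with 18 above 0 and 18 below. The QKI and control libraries did not overlap for 11 of the 36, against 26.2% of all genes. The plot of effects places the 2 experiments side by side.

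Lactate export showed opposite changes of its 2 transporters. SLC16A3 (ENSG00000141526.18, chr17:82228397-82261129, + strand), the transporter known for lactate export from glycolytic cells, was at 126, 137, 119.6 and 129 CPM in the controls and 147, 147, 150.0 and 152 CPM with the QKI shRNA. All 4 QKI shRNA libraries lay above all 4 controls. The rise was 16.5% (log2 fold change 0.22, SE 0.04, edgeR adjusted p = 0.00324). SLC16A1 (ENSG00000155380.13, chr1:112911847-112957013, - strand), its more widely expressed relative, was at 186, 214, 183 and 212 CPM in the controls and 174, 177, 172 and 167 CPM with the QKI shRNA, lower in every library than in any control (a change of -13.1%; log2 fold change -0.20, SE 0.05, edgeR adjusted p = 0.0175). LDHA (ENSG00000134333.15, chr11:18394388-18408425, + strand), which reduces pyruvate to lactate, fell from 739, 793, 757 and 788 CPM to 663, 734, 696 and 617 CPM, again without overlap. Its change was -11.9% (log2 fold change -0.18, SE 0.05, edgeR adjusted p = 0.0285), and the call was lost without control library 2 or 4 or QKI shRNA library 1 or 4 (adjusted p 0.0642 to 0.0727).

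Among the regulators of flux, PFKFB4 (ENSG00000114268.12, chr3:48517684-48562015, - strand), a bifunctional enzyme of the phosphofructokinase activator, was at 70.1, 77.1, 74.9 and 69.8 CPM in the controls and 80.3, 90.6, 87.4 and 83.9 CPM with the QKI shRNA. The groups did not overlap. It rose by 17.2% (log2 fold change 0.23, SE 0.05, edgeR adjusted p = 0.00478). PFKFB3 (ENSG00000170525.21, chr10:6144934-6254644, + strand), the form with the strongest bias towards making the activator, went from 58.6, 63.2, 58.1 and 56.5 CPM to 66.4, 64.0, 63.4 and 64.7 CPM, separated by a narrow margin (log2 fold change 0.13, SE 0.04, edgeR adjusted p = 0.0357). Its call was lost without control library 1, 3 or 4 or QKI shRNA library 1 or 4 (adjusted p 0.0609 to 0.0875). PDK3 (ENSG00000067992.17, chrX:24465221-24541862, + strand), a kinase that inhibits pyruvate dehydrogenase, fell from 159.5, 156, 169.6 and 149 CPM to 136, 142, 143 and 129 CPM, with every QKI shRNA library below every control (a change of -13.2%; log2 fold change -0.20, SE 0.05, edgeR adjusted p = 0.00949). PDK1, by far the more abundant kinase here, was at 1723 ± 36.5 CPM in the controls and 1669.9 ± 47.9 CPM with the QKI shRNA (SD, n = 4) and was not called (-0.05, SE 0.04, edgeR adjusted p = 0.481).

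Of the enzymes of glycolysis, 3 were called. HK2 (ENSG00000159399.10, chr2:74833981-74893359, + strand), the hexokinase known to be induced in tumours, was at 258, 294, 274 and 268 CPM in the controls and 292, 306, 315 and 299 CPM with the QKI shRNA. It was higher at 4 of 4 numbers, but the groups overlapped, since control library 2 lay just above QKI shRNA library 1 (log2 fold change 0.15, SE 0.05, edgeR adjusted p = 0.0352). The call was lost without control library 1, 3 or 4 or QKI shRNA library 2, 3 or 4 (adjusted p 0.05002 to 0.0897). ENO2 (ENSG00000111674.9, chr12:6913745-6923698, + strand), the enolase form of neurons and many tumours, was low, at 7.65, 10.1, 8.64 and 9.07 CPM in the controls and 10.6, 11.5, 11.4 and 10.8 CPM with the QKI shRNA, without overlap. It had the largest rise of the set, 25.1% (log2 fold change 0.32, SE 0.07, edgeR adjusted p = 0.00814). ALDOC (ENSG00000109107.14, chr17:28573115-28577264, - strand), the aldolase form of brain, had the largest fall, from 7.68, 7.71, 8.35 and 7.81 CPM to 6.32, 6.52, 6.12 and 5.65 CPM (-22.0%; log2 fold change -0.36, SE 0.06, edgeR adjusted p = 0.00128). The highest QKI shRNA library was below the lowest control. An antisense gene covers 10.1% of the exon bases of ALDOC, and whether counting used strand is not known here.

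The abundant enzymes of the trunk pathway did not pass the test. GAPDH went from 3449.5 ± 303 to 3807 ± 124 CPM (0.14, edgeR adjusted p = 0.133), ENO1 from 2585 ± 221 to 2543 ± 25.6 CPM (-0.02, adjusted p = 0.815) and PGK1, the first kinase to form ATP, from 1117 ± 65.0 to 1044 ± 94.4 CPM (-0.10, adjusted p = 0.319). Values for TPI1 (-0.10), PGAM1 (-0.03), PKM (0.09), GPI (0.01), HK1 (-0.04), PFKL (0.10), PFKP (0.01) and PFKM (0.07) were also small log2 fold changes and were not called. The same held for the glucose transporters SLC2A1 (-0.03) and SLC2A3 (-0.01), and for the uncertain rows ALDOA (-0.11) and LDHB (-0.12).

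HIF1A and EGLN1 were not called. HIF1A was at 91.3 ± 5.19 CPM in the controls and 94.3 ± 4.54 CPM with the QKI shRNA (0.05, SE 0.05, edgeR adjusted p = 0.540), and EGLN1, its main hydroxylase, at 24.5 ± 0.961 and 25.9 ± 0.578 CPM (0.08, adjusted p = 0.184). The hydroxylase EGLN3 had no count in any of these 8 libraries. HIF1A is controlled mainly as a protein, which these data do not measure.

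Of the other hypoxia-induced genes, NDRG1 (ENSG00000104419.17, chr8:133237171-133302022, - strand), a stress-response gene widely used as a marker of hypoxia, was at 324, 309.9, 311 and 313 CPM in the controls and 264, 285, 279 and 268 CPM with the QKI shRNA. All QKI shRNA libraries were lower than all controls. The change was -12.9% (log2 fold change -0.20, SE 0.04, edgeR adjusted p = 0.00325). KDM3A (ENSG00000115548.17, chr2:86440647-86492716, + strand), a histone demethylase, rose from 93.5, 99.8, 95.7 and 94.6 CPM to 108, 110.5, 110.2 and 101.9 CPM, without overlap (12.3%; log2 fold change 0.17, SE 0.04, edgeR adjusted p = 0.00828). VEGFA was at 276, 241, 237 and 245 CPM in the controls and 236, 222, 218 and 227 CPM with the QKI shRNA, every library below every control, but its adjusted p was 0.0581 (-0.14, SE 0.05). The mitophagy receptors BNIP3 (0.11) and BNIP3L (0.05), P4HA1 (-0.07), the peptide hormone ADM (0.23, SE 0.16), ANKRD37 (-0.08) and the MYC antagonist MXI1 (0.04) were not called. The called genes of the whole set stood on both sides. SLC16A3, PFKFB4, PFKFB3, HK2, ENO2 and KDM3A rose, and NDRG1, LDHA, SLC16A1, PDK3 and ALDOC fell. Whether HIF1A had a part in these changes was not tested.

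**Figure D2:**
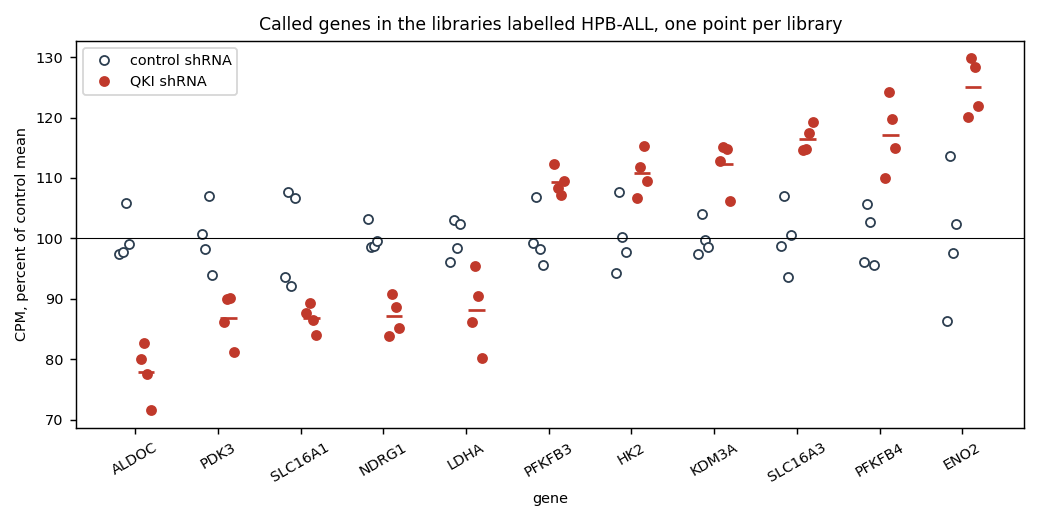
For the 11 called genes, each library labelled HPB-ALL is plotted as a percentage of the mean CPM of the 4 control shRNA libraries (open points: control shRNA; filled red: QKI shRNA, with a bar at their mean; the line marks 100%). Genes run from the largest fall, ALDOC (-22.0%), to the largest rise, ENO2 (25.1%), and HK2 is the one whose groups overlap.

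The composition of these libraries moved with the same contrast. The summed level of the 12 myeloid markers was 3415 to 3575 CPM in the controls and 2980 to 3112 CPM with the QKI shRNA, and of 11 tested 0 were higher and 6 lower, where 10.4% of all genes were called lower. Mitochondrially encoded messenger RNAs took 1.26% ± 0.173 of counts in the controls and 1.05% ± 0.0576 with the QKI shRNA (SD, n = 4), with 0 of 12 higher and 4 of 12 lower. Their part in the changes above was not tested. All 11 T-cell markers were at or near 0 in both groups.

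The direct test of whether the effect of QKI depletion on a gene differed between the 2 experiments (an interaction term over 16 libraries and 15730 genes) called 0 of 36 genes by edgeR, with 0.0254% of all genes called; 2 had an unadjusted p under 0.05, ALDOC (difference -0.34, SE 0.15, adjusted p = 0.757) and PDK1 (-0.29, SE 0.11, adjusted p = 0.644). DESeq2 and limma-voom also called 0. With the replicate number as a block 3 of 36 were called, with 3.06% of all genes. These were ENO2 (0.33, SE 0.08, adjusted p = 0.0427), PFKFB4 (0.32, SE 0.08, adjusted p = 0.0411) and PDK3 (-0.28, SE 0.06, adjusted p = 0.0370). In Jurkat, PFKFB4 was at 11.4, 14.7, 11.3 and 11.5 CPM with the control siRNA and 10.7, 15.1, 9.88 and 10.2 CPM with the QKI siRNA. PDK3 was at 133, 150.4, 91.3 and 90.0 CPM and 139, 156, 92.1 and 97.7 CPM, higher in 4 of 4 pairs where it fell in the libraries labelled HPB-ALL. ENO2, at 104, 136, 62.1 and 70.0 CPM against 99.8, 129.7, 65.4 and 67.9 CPM, was lower in 3 of 4 pairs. The numbers pair the libraries in Jurkat only, and each of the 3 calls was lost in 6 or 7 of the 8 fits that left out 1 number of 1 experiment (adjusted p up to 0.144 for ENO2, 0.121 for PFKFB4 and 0.124 for PDK3). The experiments also differ in line, serum, delivery, RNA selection and depth of depletion, which cannot be told apart.

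Related genes outside the 39 were counted the same way in the libraries labelled HPB-ALL. The background for every count is the 12.8% of all genes called higher and 10.4% called lower, and no list was tested against it. Of 13 tested genes of the HIF system 1 was higher and 2 lower: SIAH1, a ubiquitin ligase acting on the hydroxylases, 0.22 (SE 0.05, adjusted p = 0.00465), CITED2, which competes with HIF for its coactivator, -0.26 (SE 0.04, adjusted p = 0.00115), and RBX1, a subunit of the ligase that destroys HIF1A, -0.34 (SE 0.07, adjusted p = 0.00532). Of 14 other glycolysis genes 1 was higher, the hexokinase HK3 (0.23), and 2 were lower, PFKFB2 (-0.26) and BSG (-0.27), the partner that carries SLC16A1 and SLC16A3 to the membrane. Of 12 genes of pyruvate entry into mitochondria 1 was higher, the phosphatase PDP1 that opposes the PDK kinases (0.20), and 2 were lower, PDP2 (-0.18) and PDHX (-0.17). The pentose phosphate pathway had 1 higher (PGLS, 0.24) and 1 lower (H6PD, -0.26) of 8, and the serine branch 0 higher and 1 lower of 7 (PHGDH, -0.15). Of 25 other hypoxia-inducible genes 3 were higher and 6 lower, among them ERO1A, an oxidase of the endoplasmic reticulum (-0.63), and HMOX1, haem oxygenase (0.44). In the MYC and ChREBP network 3 of 11 were higher and 0 lower, MXD3 (0.41), MXD1 (0.17) and MNT (0.17), each a partner of MAX, where 12.8% of all genes were called higher. All values are log2 fold changes of called genes, and median changes of the 7 lists lay between -0.06 and 0.09, against -0.006 over all genes. In Jurkat 0 genes were called in each of the 7 lists by edgeR; at an unadjusted p under 0.05 there was 1 gene, in the HIF system, and with the replicate block 0 were called and 4 had such a p.

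Across the 6 untreated lines all 39 genes differed (edgeR F test over the lines, 39 of 39 called), as did 98% of all 20348 genes tested, and between the highest and the lowest line mean 36 of 39 differed at least 2-fold, against 87.7% of all genes. The exceptions were SLC2A1 (1.86-fold), PFKP (1.98-fold) and KDM3A (1.63-fold). The median fold between the highest and lowest line mean was 4.51 for the 39 and 5.997 for all genes, where lines at 0 give an unbounded fold; as a range of mean log2(CPM + 0.1) the order was the opposite, with medians of 2.16 and 2.06. LOUCY was the highest line for 13 of the 39 genes, against 18.5% of all genes, and KARPAS-45 for 10, against 25.1%. HPB-ALL was the lowest for 10, against 12.6% of all genes (ties at 0 not counted). Against the mean of the other lines, the median log2 difference of the 39 was 0.53 in LOUCY and 0.25 in KARPAS-45, against 0.03 and -0.07 over all genes. It was 0.19 in TALL-1, -0.16 in ALL-SIL, -0.21 in HPB-ALL and -0.25 in DND-41. Culture and RNA makeup also moved with the line: serum was 20% in KARPAS-45 and HPB-ALL, and the mitochondrial share was 0.620% to 1.37% in KARPAS-45 and 3.22% to 8.12% in the others. Their part in these differences was not tested.

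A gene was taken as set apart in a line when all 4 of its libraries lay beyond all 20 others and the contrast with the other lines had an edgeR adjusted p under 0.05. LOUCY had 6 such genes on the high side, with 9.64% of all genes, and 1 on the low side, with 5.95%. They were SLC16A3 (109 CPM against 1.84 to 30.8), PFKFB4 (10.8 CPM against 1.43 to 6.07), the isomerase GPI (254 CPM against 91.4 to 153), BNIP3L (175 CPM against 56.4 to 98.3), ADM (2.16 CPM against 0 to 0.200) and P4HA2 (1.24 CPM against 0 to 0.0378), and on the low side PDK3 (32.2 CPM against 38.9 to 110.1), each as a line mean against the range of the other 5 means. KARPAS-45 had 5 on the high side, with 16.4% of all genes, and 5 on the low side, with 12.3%. The high ones were GAPDH (6151 CPM against 2086 to 2962), LDHA (1451 CPM against 389 to 708), the mutase PGAM1 (590.0 CPM against 131 to 275), PDK3 (110.1 CPM against 32.2 to 59.8) and SLC16A1 (344 CPM against 111 to 151). The low ones were VEGFA (11.4 CPM against 106 to 373), MXI1 (8.91 CPM against 9.77 to 117), SLC2A3 (5.81 CPM against 12.8 to 48.9) and the uncertain rows of ANKRD37 (0.395 CPM against 1.58 to 5.24) and LDHB. The genes for making and exporting lactate were thus split between these lines, with LDHA and SLC16A1 highest in KARPAS-45 and SLC16A3 highest in LOUCY.

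The other lines had fewer. HPB-ALL had 2 on the high side, MXI1 (117 CPM against 8.91 to 43.8) and BNIP3 (0.290 CPM against 0.00486 to 0.0890), with 6.64% of all genes, and 2 on the low side, SLC16A3 (1.84 CPM against 10.2 to 109) and NDRG1 (2.71 CPM against 5.84 to 30.3), with 4.45%. Without HPB-ALL library 4 these rose to 3 and 4. TALL-1 had 2 high, PDK1 (40.4 CPM against 0 to 26.6) and HIF1A (129 CPM against 57.1 to 113), with 4.42% of all genes, and 1 low, ALDOC (0.498 CPM against 0.877 to 4.06), with 3.69%. HIF1A in TALL-1 did not pass the test against the next line, LOUCY (0.20, SE 0.11, adjusted p = 0.0988). DND-41 had 2 high, EGLN1 (8.54 CPM against 0 to 3.04) and SLC2A3 (48.9 CPM against 5.81 to 17.4), with 3.78%, and 0 low, with 2.35%. ALL-SIL had 0 high, with 4.22%, and 3 low, with 3.93%: PDK1 (0 CPM against 14.96 to 40.4), PFKFB3 (9.69 CPM against 21.1 to 76.0) and P4HA1 (15.4 CPM against 33.3 to 68.9). Every count of the 6 lines, high or low, was within 3 genes of the number that the share of all genes gives over 39 genes; on the high side of LOUCY this number was 3.76, against 6 found.

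PDK1 and the hydroxylases EGLN1 and EGLN3 had the widest ranges. PDK1 was at 41.2, 51.3, 38.6 and 30.4 CPM in TALL-1, 26.1, 28.6, 26.1 and 25.4 CPM in LOUCY (numbers 3 and 4, then 2 libraries whose columns both carry the number 1, so that replicates 1 and 2 cannot be told apart, here and below), 21.7, 22.4, 27.4 and 23.8 CPM in DND-41, 19.4, 19.7, 19.9 and 19.7 CPM in KARPAS-45 and 11.4, 16.6, 15.2 and 16.5 CPM in HPB-ALL. In ALL-SIL no count was recorded in any of the 4 libraries, so that TALL-1 was at least 618-fold higher, taking 3 counts per library as the floor. Neighbours in this order did not pass the test between LOUCY and DND-41 (adjusted p = 0.339) and between DND-41 and KARPAS-45 (adjusted p = 0.0823). EGLN3, which marks HIF for destruction and is itself hypoxia-induced, was at 28.3, 36.2, 34.7 and 35.4 CPM in DND-41, 12.0, 15.8, 13.9 and 29.4 CPM in HPB-ALL, 5.37, 5.66, 4.69 and 7.27 CPM in ALL-SIL and 0.889, 0.898, 1.73 and 1.90 CPM in TALL-1, and at or below 0.0363 CPM in every LOUCY and KARPAS-45 library. All neighbours differed except LOUCY and KARPAS-45 (adjusted p = 0.347). EGLN1 was at 8.41, 9.59, 8.73 and 7.43 CPM in DND-41, 3.26, 3.30, 2.701 and 2.90 CPM in ALL-SIL and 3.22, 2.87, 1.77 and 2.36 CPM in KARPAS-45, the last 2 not differing (adjusted p = 0.317). It had no count in TALL-1, which puts DND-41 at least 147-fold higher, and at most 1 count per library in LOUCY and HPB-ALL. DND-41 thus stood first for both hydroxylases, and LOUCY was near 0 for both.

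SLC16A3 was at 118, 93.8, 102.4 and 120.2 CPM in LOUCY, 31.0, 29.7, 36.6 and 25.9 CPM in ALL-SIL, 14.0, 18.5, 16.9 and 21.8 CPM in DND-41, 11.8, 11.6, 11.4 and 12.4 CPM in KARPAS-45, 9.14, 9.52, 10.6 and 11.5 CPM in TALL-1 and 1.62, 1.96, 1.60 and 2.17 CPM in HPB-ALL. LOUCY was 59.1-fold above HPB-ALL, and of the neighbours KARPAS-45 and TALL-1 did not pass the test (adjusted p = 0.161). VEGFA was at 309.9, 386, 341 and 456 CPM in DND-41, 234, 251, 237 and 479 CPM in TALL-1, 147, 244, 159 and 313 CPM in HPB-ALL, 91.6, 257, 116 and 79.9 CPM in LOUCY, 120.5, 125, 29.2 and 149 CPM in ALL-SIL and 11.6, 11.5, 11.7 and 10.9 CPM in KARPAS-45. Its libraries spread widely within lines, and among neighbours only KARPAS-45 stood apart, below ALL-SIL (adjusted p = 1.28e-07). The library numbered 4 was the highest in DND-41, TALL-1, HPB-ALL, LOUCY and ALL-SIL, and the lowest in KARPAS-45. For comparison, 51.9% to 76.2% of all genes differed between the lines of a pair. MXI1, which opposes MYC, was at 104, 116, 97.5 and 152 CPM in HPB-ALL, 45.6, 48.3, 44.8 and 36.6 CPM in LOUCY, 26.4, 27.2, 23.9 and 52.0 CPM in TALL-1, 28.4, 29.2, 28.7 and 32.4 CPM in DND-41, 9.78, 9.46, 10.3 and 9.51 CPM in ALL-SIL and 9.29, 8.85, 8.63 and 8.87 CPM in KARPAS-45. TALL-1 and DND-41 did not pass the test against each other (adjusted p = 0.582), nor did ALL-SIL and KARPAS-45 (adjusted p = 0.521).

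Among the untreated lines, ADM and P4HA2 had a mean over 1 CPM only in LOUCY. ADM was at 3.12, 1.21, 2.37 and 1.94 CPM in LOUCY and 0.101, 0.227, 0.239 and 0.234 CPM in DND-41, at or below 0.109 CPM in every library of ALL-SIL, HPB-ALL and KARPAS-45, and without a count in TALL-1, so that LOUCY was at least 37.1-fold above TALL-1. In the separately normalized Jurkat controls ADM was at 2.07 ± 0.424 CPM and in the controls labelled HPB-ALL at 0.727 ± 0.176 CPM. P4HA2 was at 1.12, 1.66, 0.831 and 1.35 CPM in LOUCY, at or below 0.0789 CPM in every library of HPB-ALL, KARPAS-45 and TALL-1, and without a count in DND-41 and ALL-SIL (LOUCY at least 20.5-fold and 19.0-fold higher). Below LOUCY, no neighbours in the order of P4HA2 passed the test, and for ADM neither ALL-SIL and HPB-ALL (adjusted p = 0.319) nor HPB-ALL and KARPAS-45 (adjusted p = 0.889) did. The plot of these 8 genes shows every library.

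**Figure D3:**
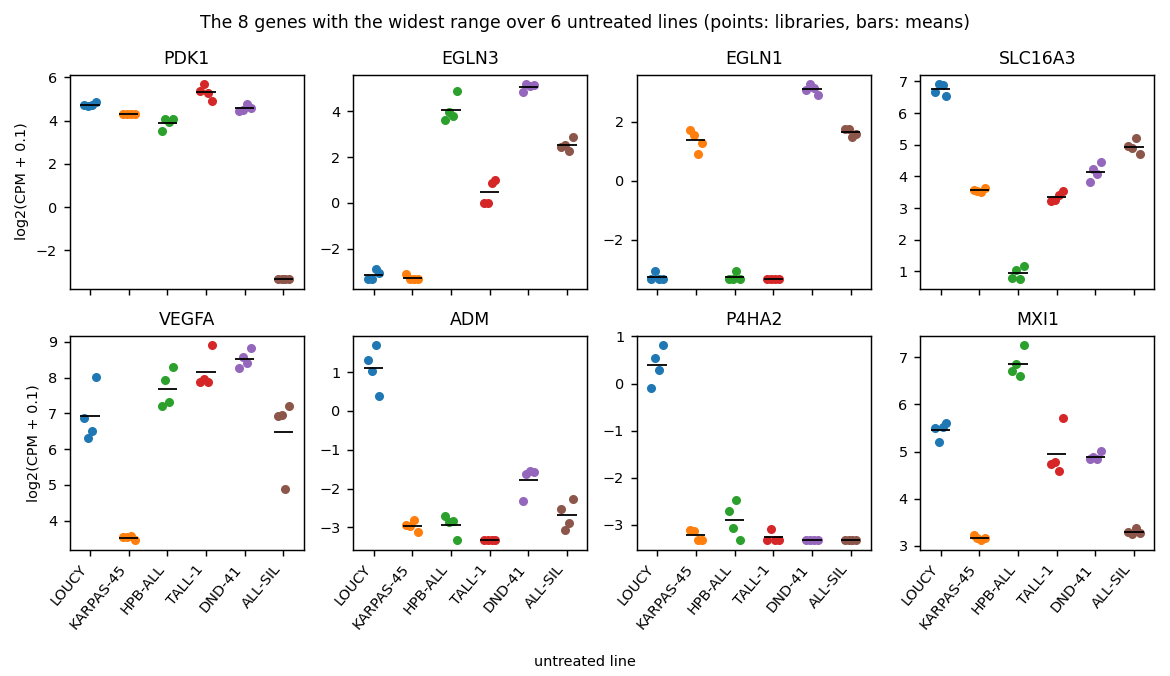
Each panel shows 1 of the 8 genes with the widest range over the untreated lines as log2(CPM + 0.1), with 4 points per line (libraries) and a bar at their mean. PDK1 drops to the bottom only in ALL-SIL, and SLC16A3, ADM and P4HA2 are highest in LOUCY. VEGFA is low in KARPAS-45, and MXI1 is low in both KARPAS-45 and ALL-SIL.

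Several steps are served by forms encoded by different genes, and the share of one form in their summed counts, not corrected for length, is given as a description (mean ± SD, n = 4). SLC16A3 made up 39.2% ± 1.11 of the 2 lactate transporters in the controls labelled HPB-ALL and 46.3% ± 1.09 with the QKI shRNA, 2.12% ± 0.123 and 2.15% ± 0.413 in Jurkat, 49.998% ± 8.003 in LOUCY and 1.29% ± 0.326 in untreated HPB-ALL. HK2 made up 62.4% ± 1.73 of HK1 and HK2 in the controls labelled HPB-ALL and 65.5% ± 1.13 with the QKI shRNA, and from 12.1% ± 6.28 in ALL-SIL to 41.03% ± 2.43 in KARPAS-45 among the lines. PDK3 was all that was counted of PDK1 and PDK3 in ALL-SIL, 84.8% ± 1.03 in KARPAS-45, 54.8% ± 3.13 in LOUCY, and only 8.42% ± 0.531 in the controls labelled HPB-ALL.

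PFKFB3 took 44.7% ± 0.790 of PFKFB3 and PFKFB4 in the controls labelled HPB-ALL, where PFKFB4 was the larger, but 81.1% ± 2.19 in ALL-SIL to 96.0% ± 4.18 in HPB-ALL among the lines. PFKL, the liver form of phosphofructokinase, took 69.2% ± 1.40 of the 3 forms in the controls labelled HPB-ALL, 61.8% ± 0.727 in KARPAS-45 and 30.9% ± 4.75 in the Jurkat controls, where PFKP was the main form. SLC2A3, the glucose transporter of high affinity, took 51.3% ± 1.14 of SLC2A1 and SLC2A3 in the controls labelled HPB-ALL, 49.2% ± 5.09 in DND-41 and 7.96% ± 1.21 in KARPAS-45. ENO2 took 0.342% ± 0.0320 of ENO1 and ENO2 in the controls labelled HPB-ALL and 5.51% ± 0.624 in LOUCY to 13.7% ± 4.52 in DND-41 among the lines. Side by side, the controls labelled HPB-ALL and untreated HPB-ALL stood at 39.2% and 1.29% for SLC16A3, at 62.4% and 18.2% for HK2, and at 8.42% and 80.0% for PDK3. These come from separately normalized tables, but a share within a library does not depend on that scaling.

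**Figure D4:**
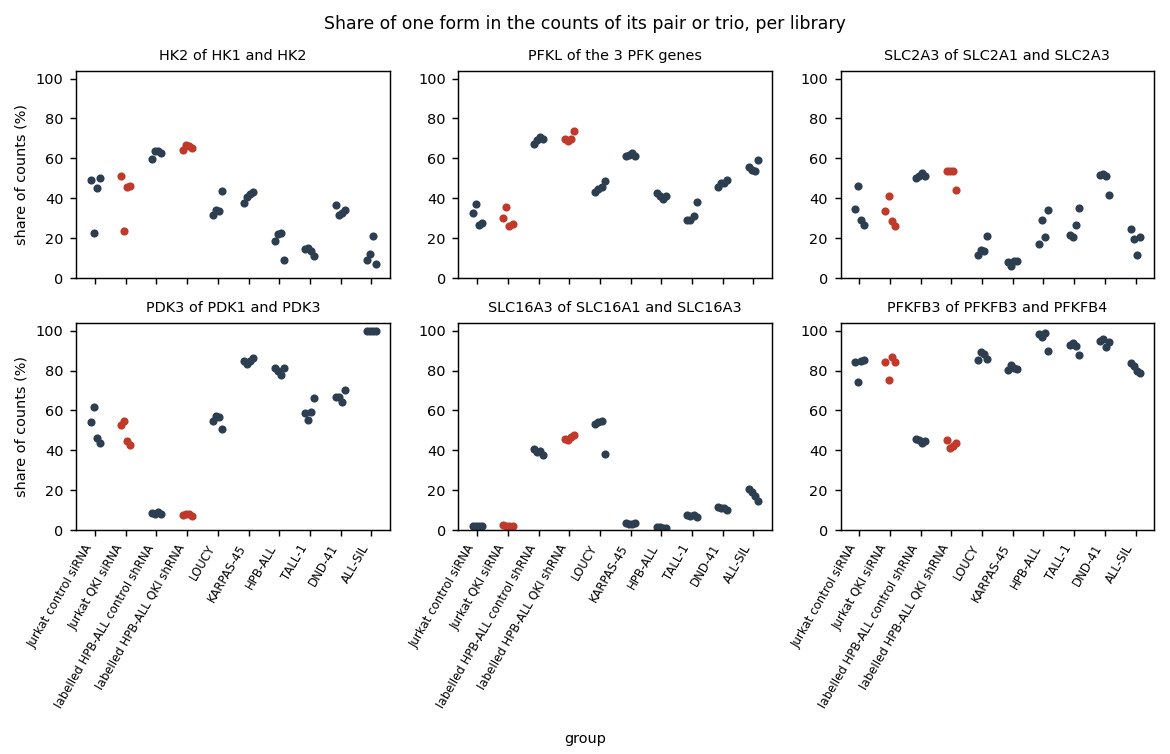
Each panel shows, for every library, the share of 1 form in the summed counts of its pair or trio (y axis, 0 to 100%), by group (red: QKI siRNA or shRNA). SLC16A3 is at 49.998% in LOUCY and 39.2% to 46.3% in the libraries labelled HPB-ALL (group means) and low in most others, and PDK3 is at 100% in ALL-SIL.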

How the data were processed

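RNA was sequenced from 40 libraries, and gene totals were deposited in 3 tables of raw read counts, in whole numbers, for the Jurkat knockdown, the knockdown labelled HPB-ALL and 6 untreated lines. Per the labels, Jurkat RNA is total RNA and the others polyadenylated. The tools named in the submitters' processing notes are Trimmomatic 0.39 and STAR 2.7.11b, with the build GRCh38. No source used here states the counting rule, the annotation or the strand setting. Rows that name no gene (13.0% to 15.1% of reads in the table labelled HPB-ALL, of which ambiguous reads were 5.13% to 5.32% of reads) were left out. The Jurkat control columns are headed shNTC and were read as the control siRNA libraries, Jurkat having no other control.

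Tests on the deposited counts used edgeR 4.0.16 under R 4.3.3 (filterByExpr, TMM, quasi-likelihood F test, Benjamini-Hochberg adjustment over all genes tested, threshold 0.05). The 8 libraries of each knockdown were fitted alone, the difference on 16 libraries, and the lines on 24 together. SE is the size of the log2 fold change over the square root of F. CPM were scaled by TMM within a table, so levels in different tables rest on separate normalizations. For a group at 0 the floor was 3 counts per library, which covers counting error only. Alternatives were RLE factors, no filter, DESeq2 1.42.0, limma-voom (limma 3.58.1), the replicate number as a block, a test against a fold of 1.2 and each library left out. The fits were also run on simulated counts, without pairing and with changes larger than those called for these genes in the knockdowns. That run therefore does not show how well changes of the size called there are found.

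The members and the lists of related genes were chosen with earlier results of these data known. Every called member is named; up to 6 per direction with the smallest p are given per library, else the 3 with the smallest p; the 8 widest ranges and every gene set apart are named for the lines, and up to 3 called genes per list of related genes, of which 1 is not reported here. VEGFA in both knockdowns and values set side by side across tables were added after values were seen.

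In Jurkat, deviations from the group mean correlated between same-numbered libraries (0.337 to 0.556), so the numbers pair them; what a number stands for is not stated in the labels. In the libraries labelled HPB-ALL the correlations were -0.179 to 0.0450, so the numbers do not pair these. In the lines the mean correlations were 0.0124 to 0.0738 for numbers 1 to 3, and 0.200 for number 4. What the libraries numbered 4 have in common was not tested. No replicates were duplicates (chi-square per degree of freedom at least 12.7). Gene positions and overlaps come from GENCODE 29 on GRCh38.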

Additional observations from a re-analysis of the deposited data

Results flagged for a closer look

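Among 71 groups of 4 libraries tested for 1 library far from its group, 7 were found. In 4 of them the value is a single count beside 3 zeros, which meets the rule by construction: EGLN3 at 0.0152 CPM in KARPAS-45 library 1, EGLN1 at 0.0205 CPM in 1 of the 2 LOUCY libraries whose columns carry the number 1 and at 0.0197 CPM in HPB-ALL library 3, and P4HA2 at 0.0176 CPM in TALL-1 library 2, each with the other 3 libraries at 0. The other 3 are measured levels, for which chance flags about 1 in 20 groups. VEGFA was at 479 CPM in TALL-1 library 4, against 234 to 251 CPM in the others, and MXI1 at 52.0 CPM in the same library, against 23.9 to 27.2 CPM. ADM was at 0.101 CPM in DND-41 library 1, against 0.227 to 0.239 CPM in the others. For VEGFA, library 4 was also the highest in LOUCY, HPB-ALL, DND-41 and ALL-SIL, but not in KARPAS-45. For MXI1 it was also the highest in LOUCY, HPB-ALL and DND-41, but not in ALL-SIL or KARPAS-45. Whether the libraries numbered 4 share a shift was not tested.

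The effect of depletion on QKI itself differed between the experiments by 1.88 on the log2 scale (SE 0.17, edgeR adjusted p = 0.000115), the fall being larger in Jurkat. With the replicate number as a block, the effects in the libraries labelled HPB-ALL and in Jurkat also differed for ENO2 (0.33, edgeR adjusted p = 0.0427), PFKFB4 (0.32, adjusted p = 0.0411) and PDK3 (-0.28, adjusted p = 0.0370). Without the block the same differences were not called.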

How the results depend on the processing

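The alternatives were followed gene by gene for the 11 called in the libraries labelled HPB-ALL and for ALDOA, GAPDH and PDK1 in Jurkat. None of these changed direction, nor did the 3 differences called with the replicate block when 1 number was left out. Other named genes were not followed in this way. Both median log2 fold changes, which lay close to 0, changed sign under some alternatives. In the libraries labelled HPB-ALL, 11 genes were called, 8 to 10 with each library left out (8 without control library 4 or QKI shRNA library 4), 11 or 12 with RLE factors, no filter, DESeq2, limma-voom or the replicate block, and 0 against a fold of 1.2, where the adjusted p was 0.402 for ALDOC, 0.866 for ENO2 and 1 for the other 9. With the replicate block, which these libraries' numbers do not justify, the adjusted p of PFKFB3 was 0.0687 and that of VEGFA 0.0472. The median log2 fold change ran from -0.022 to 0.044 with each library left out (0.044 without QKI shRNA library 4). In Jurkat 0 genes were called under all 18 alternatives, and the median ran from -0.06 to 0.10 with each library left out. The difference between experiments gave 0 genes with each library left out and 3 with the replicate block (2 higher, 1 lower), whose calls, in fits added after the data were seen that leave out 1 number of 1 experiment, held in 1 or 2 of 8. The genes set apart in HPB-ALL numbered 4 to 7 with each library left out (7 without HPB-ALL library 4), and those of the other lines stayed within 1.5 times of the reported number. Depth limits the genes under 1 CPM, among them CA9, and ADM and P4HA2 in 5 of the 6 untreated lines. EGLN3 in LOUCY and KARPAS-45, EGLN1 in LOUCY, HPB-ALL and TALL-1, and BNIP3 and ALDOA in every untreated line were also under it. So were some genes set apart: BNIP3 in HPB-ALL, ALDOC in TALL-1, and ANKRD37 and LDHB in KARPAS-45.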

Other observations

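Some levels stood far apart between groups and belong to no comparison, since the tables were normalized separately; they were chosen after their values were seen. PDK1 had a mean of 1723 CPM in the control libraries labelled HPB-ALL and 14.96 CPM in untreated HPB-ALL, NDRG1 314.5 and 2.71 CPM, and EGLN3 0 and 17.8 CPM. BNIP3, a receptor for removing mitochondria, had a mean of 66.5 CPM in the Jurkat controls and 30.1 CPM in the controls labelled HPB-ALL, but at most 0.290 CPM in each of the 6 untreated lines.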
